A study of Mus musculus with 57 samples.

Results

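Cytoplasmic ribosomal proteins are the protein subunits of the ribosomes that translate nuclear-encoded messages. Their genes were taken from a mouse expression array as the probesets annotated with 1 symbol that begins with Rpl or Rps and a number, with Rplp, or with Rpsa, leaving out the Rps6k kinases, which are enzymes and not ribosomal proteins. Where a gene had several such probesets, the one of highest mean level over all arrays stood for it. The rule used names and mean level only, so no difference between brain regions or mice entered the choice. It found 49 genes on 101 probesets, of 12393 genes with a probeset of their own. Of these, 26 carried a large subunit symbol (Rpl) and 23 a small subunit symbol (Rps), and 23 had more than 1 probeset. RefSeq annotates 47 of them as protein coding and 2, *Rps4l* and *Rps15a-ps6*, as transcribed pseudogenes. A further 102 probesets listed a ribosomal protein together with another symbol, such as that of a pseudogene copy. These were kept apart, because the genes listed cannot be told apart there. On such probesets only, 28 ribosomal protein genes were found, and 14 of the 49 members were also listed on them. Among these 14 were *Rpl27a*, *Rps6*, *Rps25* and *Rpl14*. Their chosen probesets had mean log2 levels of 7.45, 6.89, 6.22 and 5.03, while 34 members had a mean of at least 10. Levels below are those of the chosen probeset and may not be those of the whole message.

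The arrays came from male C57BL/6NCrl mice, an inbred strain that drinks ethanol willingly, after two-bottle choice drinking in which each mouse could take 10% ethanol or water in sessions of 18 hours. Every mouse had this access over 16 sessions, and tissue was taken 6 days after the last one, so no group without ethanol exists and the labels give no age. Groups of 19 arrays were compared for 3 regions, each array holding RNA from 1 mouse and, per the study's methods, each mouse giving 1 array in every region: nucleus accumbens (NAc), a ventral striatal region; ventral midbrain (VMB), labelled as ventral tegmental area; and prefrontal cortex (PFC). How much each mouse drank was not used here, and the labels do not tie arrays of different regions to 1 mouse, so regions were compared as separate arrays. Mice were neither grouped nor ordered by intake, and the genes are described by region and by their variation among the mice of a region.

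A ribosome is built from a large and a small subunit, each a scaffold of ribosomal RNA covered by many different proteins that are needed in about equal numbers. The genes for these proteins lie scattered over the chromosomes, yet their messages are made and translated together. Most begin with a cytosine followed by a run of pyrimidines at the very 5′ end, the terminal oligopyrimidine (TOP) motif, through which the TOR kinase pathway controls their translation. Neurons also keep ribosomes in dendrites and axons, where messages are translated near synapses.

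The starts of 10 of these genes show what the members share and do not share at that place. Each is the window from 10 bases before the annotated start to 20 bases from it on, from RefSeq (build GRCm38.p6), written 5′ to 3′ on the gene's own strand, with the longest run of C and T in capitals. The first 6 are genes that differed between regions below and hold a run of 9 or more.
Rpl27a, chr7:109519185-109519214, plus strand: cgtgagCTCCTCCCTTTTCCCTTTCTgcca
Rpl35, chr2:39005112-39005141, minus strand: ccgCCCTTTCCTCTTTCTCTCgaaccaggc
Rpl14, chr9:120571507-120571536, plus strand: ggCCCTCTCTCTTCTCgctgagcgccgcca
Rps18, chr17:33955646-33955675, minus strand: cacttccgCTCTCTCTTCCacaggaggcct
Rps6, chr4:86857348-86857377, minus strand: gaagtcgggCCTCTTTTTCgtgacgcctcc
Rps9, chr7:3704031-3704060, plus strand: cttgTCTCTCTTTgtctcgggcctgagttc
The next 2 also differed between regions, but their windows hold no such run.
Rpl37, chr15:5116603-5116632, plus strand: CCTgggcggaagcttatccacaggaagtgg
Rps2, chr17:24720053-24720082, plus strand: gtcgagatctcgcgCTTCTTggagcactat
The last 2 hold a long run, and their chosen probesets passed the test in no comparison of regions. Another probeset of *Rpl13a* was called higher in NAc than in PFC (0.54) and than in VMB (0.40).
Rpl13a, chr7:45128726-45128755, minus strand: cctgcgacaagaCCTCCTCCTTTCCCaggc
Rpl7a, chr2:26910797-26910826, plus strand: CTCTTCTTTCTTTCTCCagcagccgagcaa

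A start sequence was at hand for 42 of the 49 genes, at 50 annotated starts. A C at the annotated start followed by at least 4 bases that are all C or T occurred at 8 of these 50 starts (16%), against 823 of all 32851 starts in the table (2.51%). A run of at least 8 C or T anywhere in the window occurred at 17 of them (34%), against 11.2% of all starts. Only the strand of the gene was read, and a start annotated a few bases away from the true one hides the first pattern. Among starts of members that differed between regions in any comparison 4 of 28 (14.3%) had the first pattern, and among starts of the other members 4 of 22 (18.2%). Starts of members that differed between regions and starts of the others thus held it at similar shares, as a description with no test. These are shares of starts, from 22 and 20 genes, and members were split by their chosen probesets only.

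The deposited levels were log2 values from Robust Multichip Average (RMA), a method that summarises the probes of a probeset. The median of an array lay between 6.26 and 6.32 in NAc, between 5.79 and 5.86 in VMB, and between 5.66 and 5.70 in PFC, with no overlap, so the regions did not arrive on 1 scale. Regions were therefore compared after quantile normalization of all 57 arrays together, called the common scale below, and region and array set cannot be told apart. Arrays of 1 region correlated with each other at 0.978 or more over all probesets. The array titled as PFC replicate 20 carries the ventral tegmental area in its other labels. It correlated on average at 0.9955 with the other PFC arrays and at 0.9545 with VMB arrays, and was kept with PFC. In the markers of each tissue, 7 of 7 measured markers of striatal projection neurons were higher in NAc than in PFC, all 5 measured markers of cortical excitatory neurons were lower in NAc than in PFC and in VMB than in PFC, and 5 of 6 markers of dopamine neurons were higher in VMB than in PFC.

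Of the 47 ribosomal protein genes that passed the filter on low levels, 22 were higher in NAc than in PFC, none was lower, and 25 did not pass the test. The test was limma with a minimum difference of 0.25 on the log2 scale and Benjamini-Hochberg adjustment over all 19815 probesets tested, called at an adjusted p under 0.01. Among all probesets 35.2% were called, 18.2% as higher and 17% as lower. The median difference of the 47 genes was 0.31 (range -0.24 to 1.24), against 0.03 over all probesets. The arrays of both regions did not overlap for 22 of the 47 genes, against 21.9% of all probesets. With a mean RMA of at least 10 it was 50% of the members, against 37.1% of all probesets of that level. Of the 34 members with a mean RMA of at least 10, 15 were higher, against 39.4% of all probesets of that level called, 21.5% as higher. Large and small subunit genes gave like counts, 11 of 25 and 11 of 22 higher. The genes removed by the filter were *Rpl39l*, in mammals a testis paralog of *Rpl39*, and the pseudogene *Rps15a-ps6*.

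*Rps19*, a small subunit protein whose loss of 1 copy causes Diamond-Blackfan anaemia in humans, had a lowest, median and highest level of 11.64, 11.76 and 11.88 in NAc, and of 10.53, 10.72 and 10.94 in PFC. Every NAc array lay above every PFC array. The means were 11.77 ± 0.064 in NAc and 10.73 ± 0.11 in PFC (SD, n = 19 each), a difference of 1.04 (SE 0.031, 2.06-fold, limma adjusted p = 1.83e-31). *Rpl37*, a small zinc-finger protein of the large subunit, ranged around a median of 9.33 in NAc (9.02 to 9.89), and of 8.35 in PFC (7.998 to 8.71), again without overlap. Its difference was 1.02 (SE 0.066, adjusted p = 3.76e-16).

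*Rps6*, the small subunit protein that S6 kinases phosphorylate when TOR is active, had levels of 6.90 to 7.53 in NAc (median 7.32) and of 5.31 to 6.56 in PFC (median 6.31). The groups were separate, and the lowest value belonged to PFC replicate 3, which stood below the other PFC arrays. The difference was 1.0 (SE 0.068, adjusted p = 2.26e-15). *Rps25*, a small subunit protein that many internal ribosome entry sites need, ranged from 6.21 to 7.08 in NAc and from 5.54 to 5.95 in PFC, a difference of 0.88 (SE 0.054, adjusted p = 3.73e-16). *Rps24* was 1 of the members whose levels varied little within a region. Its 19 NAc arrays lay between 12.33 and 12.46 and its 19 PFC arrays between 11.69 and 11.83. The gap of 0.65 between the means (SE 0.020, adjusted p = 3.09e-26) was many times the SD of 0.033 in NAc and 0.038 in PFC. Further probesets of *Rps24* differed by -0.02 to 0.73, so the size of this gap depends on the probeset.

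The largest difference of the 47 was that of *Rpl27a*, a large subunit protein, at 1.24 (SE 0.23, adjusted p = 1.01e-04), and it was also the least even one. Its levels ran from 6.93 to 9.62 in NAc (median 7.63), and from 6.21 to 7.21 in PFC (median 6.98), so the groups overlapped. The high NAc values came from 6 arrays that are described further on. Without the 6 NAc arrays of highest score on the first principal component, which are these arrays, the difference was 0.66 and the adjusted p 0.0467, the highest over 11 alternatives (lowest 1.92e-10). *Rpl14*, with levels of 4.93 to 5.98 in NAc and of 3.98 to 6.12 in PFC, also overlapped between regions. The highest PFC value was that of replicate 3, and the difference was 0.72 (SE 0.11, adjusted p = 7.84e-05). On the deposited scale the PFC median of *Rpl14* was 4.40, below the filter's 4.5, while its lowest NAc value was 5.38. Its PFC level was thus near background, and the size of this difference is poorly resolved. *Rps9* and *Rpl27* were higher in NAc by 0.82 and 0.72 with no overlap. At the other end, *Rps2* was at 11.77 ± 0.034 in NAc and 12.005 ± 0.14 in PFC, a difference of -0.24 that did not pass the test, and *Rpl19* and *Rps15* differed by -0.01 and -0.02.

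**Figure D1:**
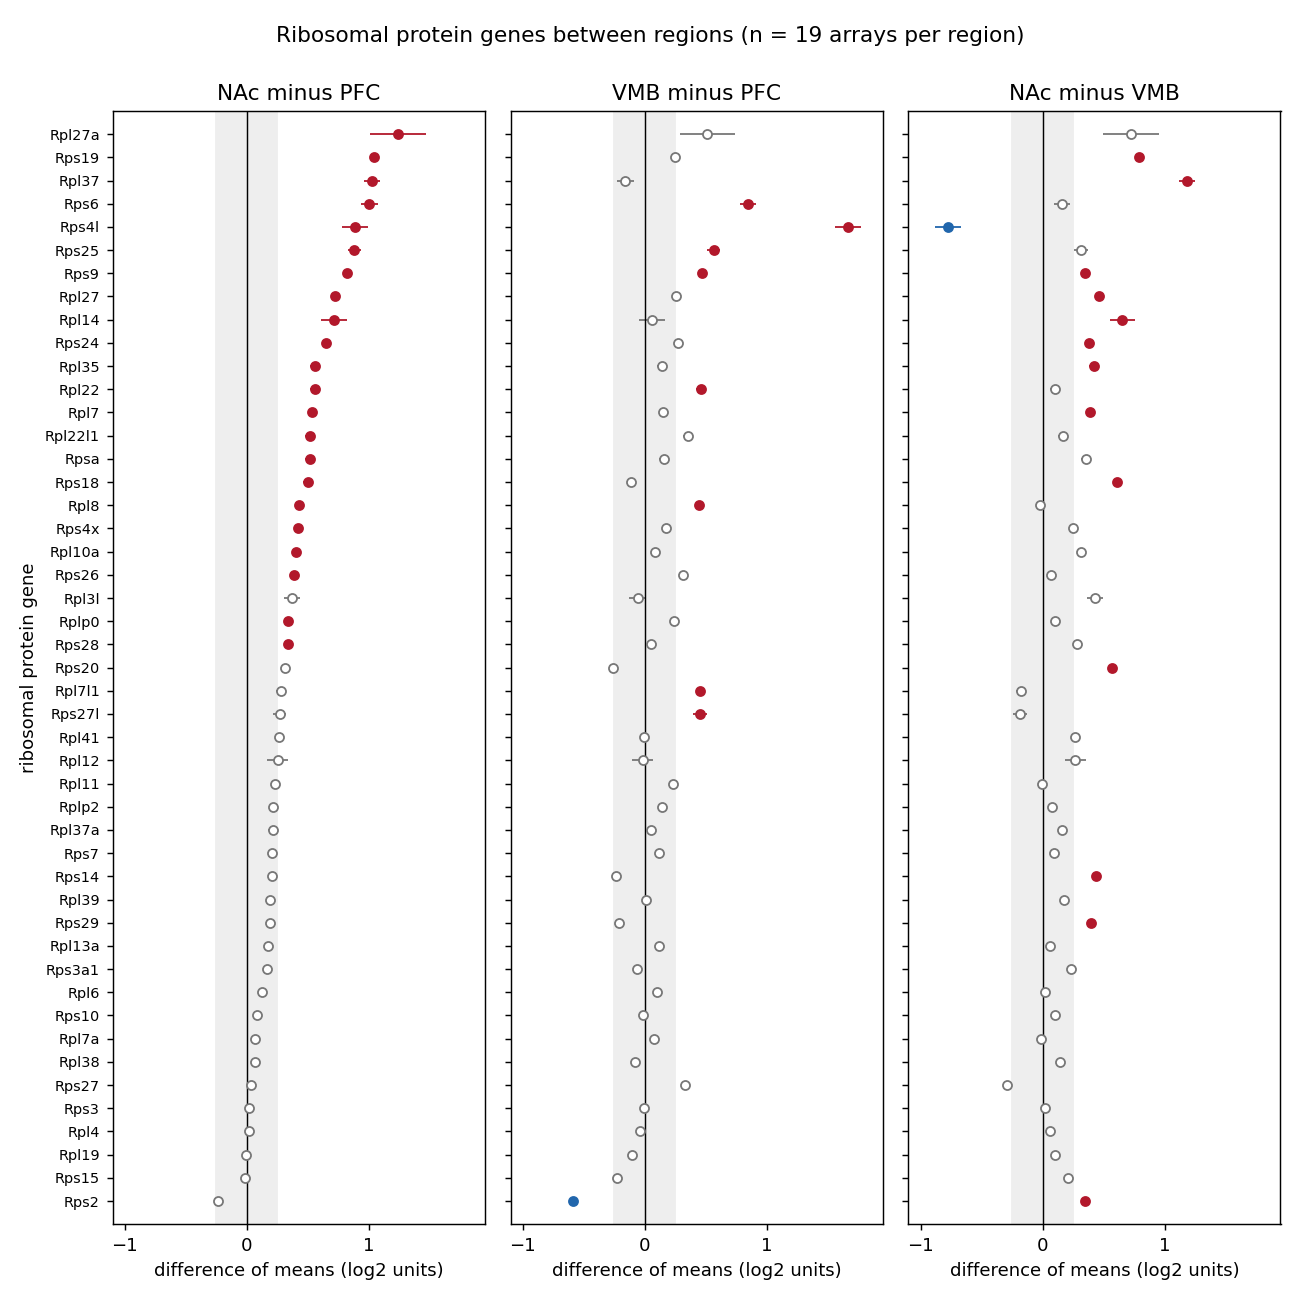
Difference of the regional means of 47 ribosomal protein genes on the common scale (x axis, log2 units; bars are standard errors; n = 19 arrays per region), ordered by the first comparison. Filled points passed the test (red higher, blue lower), open points did not, and the grey band marks the minimum difference of 0.25. In NAc minus PFC 22 points are filled, all to the right, in VMB minus PFC 8 to the right and 1 to the left, and in NAc minus VMB 13 to the right and 1 to the left.

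**Figure D2:**
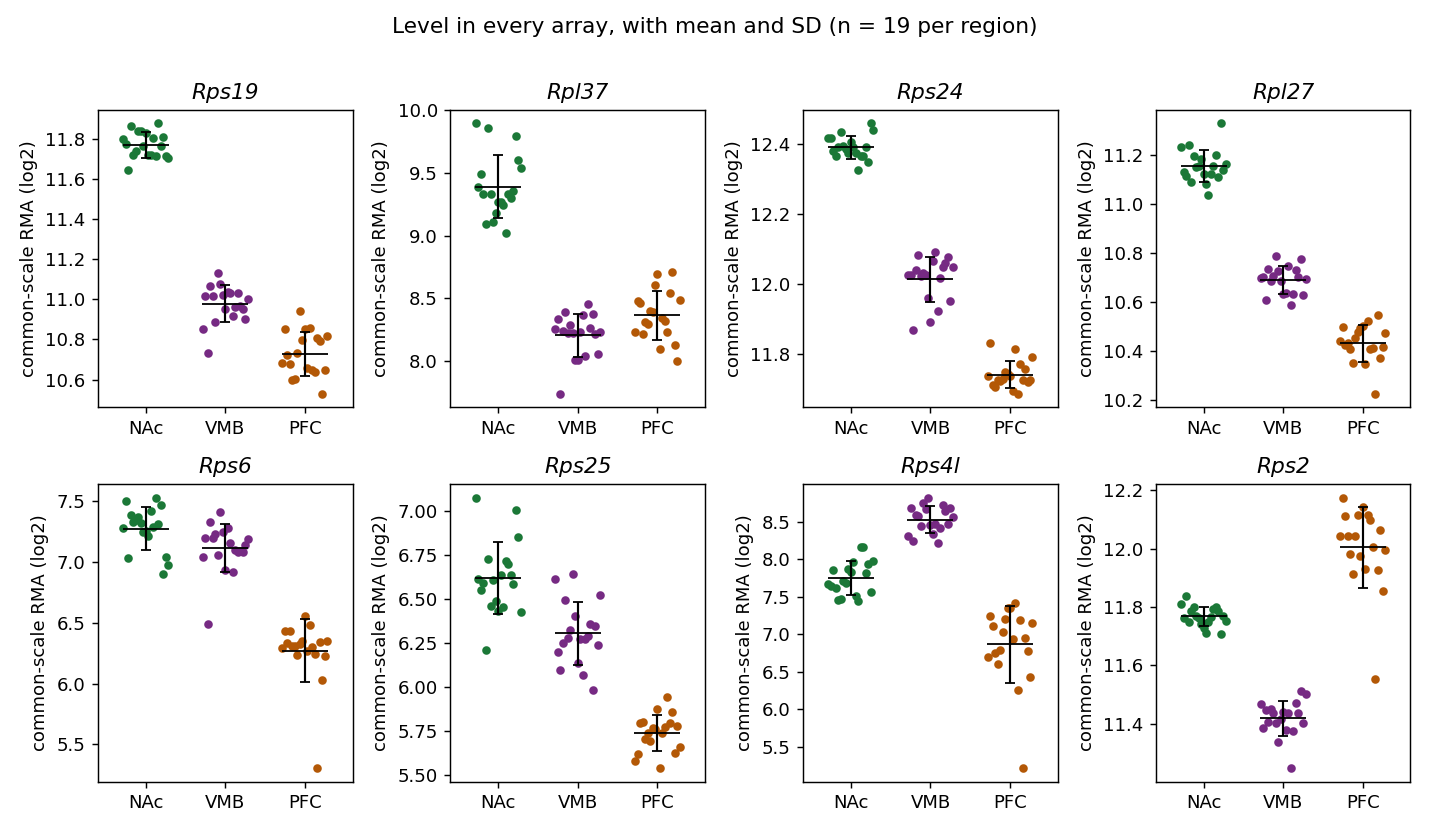
Level of 8 ribosomal protein genes in every array (y axis, common-scale RMA, log2; each panel has its own range), by region, with mean and SD (black; n = 19 each). NAc stands above PFC in the first 7 panels, VMB is highest for *Rps4l* and lowest for *Rps2*, and 1 PFC array (replicate 3) is far below the others for *Rps6*, *Rps4l* and *Rps2*.

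Between VMB and PFC, 8 of 47 ribosomal protein genes were higher in VMB, 1 was lower, and 38 did not pass the test. Over all probesets 38.2% were called, 19.6% as higher and 18.6% as lower, so the share of members called higher (17%) was close to that background and the share called lower below it. The median difference of the members was 0.11, against 0.02 over all probesets, and 10 of 47 had arrays that did not overlap (23.9% of all probesets). With a mean RMA of at least 10, 20.6% of the members did not overlap, below the 34.2% of all probesets of that level. Of the 34 members with a mean RMA of at least 10, 2 were higher and 1 lower (39.2% of all probesets of that level called, 19.2% as higher). Of the 13 members with a lower mean, 6 were higher, and no share of all probesets of that lower level was taken. Among these 6 were *Rpl22* and *Rpl7l1*, whose second probesets had the opposite sign, and *Rps27l*, whose further probesets had the same sign.

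The largest difference belonged to *Rps4l*, a relative of the X-linked small subunit gene *Rps4x* that RefSeq lists as a transcribed pseudogene. Its level was 8.22 to 8.82 in VMB (median 8.56) and 5.21 to 7.41 in PFC (median 6.95), with no overlap. The difference was 1.66 (SE 0.11, 3.17-fold, limma adjusted p = 1.01e-18). The gene *Rps4x* was at 11.54 ± 0.057 in VMB and 11.36 ± 0.083 in PFC, a difference of 0.18 that did not pass the test. *Rps6* ranged from 6.49 to 7.42 in VMB and from 5.31 to 6.56 in PFC, a difference of 0.85 (SE 0.068, adjusted p = 7.48e-12), with VMB replicate 4 falling among the PFC values. *Rps25* differed by 0.56 (adjusted p = 4.80e-07) and *Rps9* by 0.47 (adjusted p = 5.58e-08), both without overlap.

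*Rps2*, a small subunit protein next to the channel through which messages enter the ribosome, was the only member called lower. It ranged from 11.25 to 11.51 in VMB (median 11.44) and from 11.55 to 12.18 in PFC (median 12.04). No array of either region crossed into the other, although PFC replicate 3 came close to the VMB arrays. The difference was -0.59 (SE 0.031, 0.666-fold, adjusted p = 5.20e-15). Its probeset ends in _x_at, a mark for probes that may also bind other transcripts.

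Between NAc and VMB, 13 of 47 genes were higher in NAc, 1 was lower, and 33 did not pass the test, against 39.5% of all probesets called, 19.5% as higher and 19.9% as lower. The median difference was 0.21 for the members and 0.02 for all probesets, and 17 of 47 did not overlap (23.1% of all probesets). With a mean RMA of at least 10, 44.1% of the members did not overlap, against 35.4% of all probesets of that level. Of members with a mean RMA of at least 10, 11 of 34 were higher, against 37.6% of such probesets called and 20% called higher. Of small subunit genes 8 of 22 were higher and of large subunit genes 5 of 25. The calls lay mostly on probesets ending in _x_at or _s_at, _s_at being a mark for probes shared by several transcripts. Of 13 members on such probesets 10 were higher (76.9%, against 22.5% of all probesets so marked), and of the 34 members on other probesets 3 were higher (8.82%, against 19.1% of all others). With members chosen among other probesets, where a gene had one, 7 of 41 were higher and 1 lower (17.1% higher), so the share above the 19.5% of all probesets was lost. In NAc against PFC the shares called higher were 46.2% of members on marked probesets and 47.1% on others, and the same choice gave 20 of 41. *Rpl37*, on a probeset ending in _x_at, had the largest difference, with 9.02 to 9.89 in NAc and 7.74 to 8.45 in VMB, a difference of 1.18 (SE 0.066, 2.27-fold, limma adjusted p = 1.07e-19). *Rps19* lay between 11.64 and 11.88 in NAc and between 10.73 and 11.13 in VMB, a difference of 0.79 (SE 0.031, adjusted p = 8.85e-24). Both groups were clear of each other for these genes. *Rpl14* was higher in NAc by 0.65, and *Rps18* and *Rps20*, both on _x_at probesets, by 0.61 and 0.57. In VMB the deposited level of *Rpl14* was near the filter's 4.5, with a median of 4.85 and a lowest value of 4.25. For *Rpl27a* the values of both regions overlapped widely, and the difference of 0.72 missed the threshold (adjusted p = 0.0471). *Rps4l* was the 1 gene called lower, at 7.44 to 8.16 in NAc and 8.22 to 8.82 in VMB. Its difference was -0.78 (SE 0.11, adjusted p = 1.11e-05), and on the deposited scale, where all probesets had a median of 0.55, it was -0.17, or -0.71 relative to that shift, and did not pass (adjusted p = 0.916, the highest over 11 alternatives, with 1.93e-09 the lowest). The 3 comparisons share arrays, so their counts are not independent of each other. Over the 3 regional means of each gene, NAc was highest for 37 of the 47 members, VMB for 7 and PFC for 3, whereas NAc was highest for 35.2% of all probesets. The 37 include *Rpl3l*, which passed the filter only through NAc arrays, and this count was not split by suffix.

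Because a whole-array shift between regions would raise or lower all genes, the counts were also taken on the deposited values and on values centred on each array's median. In NAc against PFC the deposited values had 47 of 47 members higher, but all probesets had a median difference of 0.72 there and 75.9% of them were higher. Relative to that shift, the members' median stood 0.34 above that of all probesets. Median centring gave 33 higher and 0 lower of 47, and 22.8% of all probesets higher. In NAc against VMB the deposited values gave 44 higher and 0 lower (63.1% of all probesets higher, with a median of 0.55), and median centring gave 32 higher and 1 lower (23.6% of all probesets higher). In VMB against PFC the deposited values gave 12 higher and 1 lower, against 30.2% and 13.4% of all probesets, and median centring 4 higher and 2 lower, against 19.1% and 19.4%. The members' median then differed from that of all probesets by 0.01. The sign of single members near zero followed the scale. *Rps2* in NAc against PFC was -0.24 on the common scale and 0.59 as deposited, where it was called higher, and *Rpl19*, *Rpl11* in NAc against VMB and *Rpl7l1* in NAc against VMB turned in the same way.

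**Figure D3:**
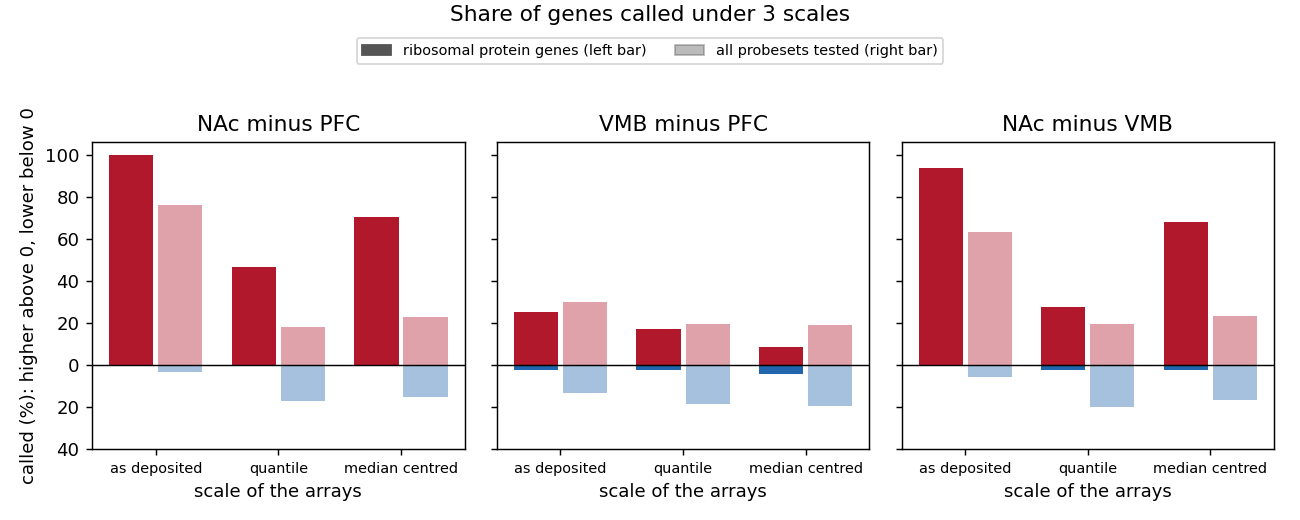
Share of the 47 ribosomal protein genes (left bars, full colour) and of all probesets tested (right bars, pale) called higher (red, above 0) or lower (blue, below 0) in each comparison, in percent, for deposited values, quantile normalization and median centring. In NAc minus PFC the members' share called higher is 46.8% on the common scale against 18.2% of all probesets, and in VMB minus PFC it is 17% against 19.6%.

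The stalk proteins gather translation factors at the large subunit. *Rplp0*, the base of the stalk, was at 11.06 ± 0.072 in NAc and 10.72 ± 0.095 in PFC, a difference of 0.34 (limma adjusted p = 0.00248). *Rplp2*, one of the stalk's acidic proteins, was at 12.11 ± 0.086 in NAc and 11.89 ± 0.10 in PFC, a difference of 0.22 that did not pass the test. *Rpsa*, a small subunit protein also known as a laminin receptor, ranged from 11.57 to 11.86 in NAc and from 10.89 to 11.48 in PFC, and was higher by 0.52 (adjusted p = 3.72e-08). *Rpl11*, which can bind and hold back the p53 regulator Mdm2 when ribosome assembly fails, differed by 0.23 in NAc against PFC and by 0.23 in VMB against PFC. Neither difference passed the test with its minimum of 0.25, although neither NAc nor VMB arrays overlapped with those of PFC.

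Paralogs of ribosomal proteins can be set beside their parent genes. The chosen probesets of *Rpl22* and of its paralog *Rpl22l1*, which can take its place in the large subunit, were higher in NAc than in PFC, by 0.55 and 0.52. A second probeset of *Rpl22* differed by -0.60 there and was called lower, so the direction of *Rpl22* is not settled. *Rps27l*, in humans a target of p53, was higher in VMB than in PFC by 0.45 (adjusted p = 9.08e-04), and its parent *Rps27* by 0.33, which did not pass. *Rpl7l1*, a relative of *Rpl7*, was higher in VMB than in PFC by 0.46 (adjusted p = 5.39e-07), but its second probeset, of nearly the same level, differed by -0.14 and did not pass, so the array does not settle its direction. *Rpl7* differed by 0.53 in NAc against PFC (adjusted p = 6.34e-16) and by 0.39 in NAc against VMB (adjusted p = 1.29e-06). *Rpl39*, at 5.90 in NAc, 5.72 in VMB and 5.71 in PFC, passed the test in no comparison. *Rpl3l*, a paralog used in heart and skeletal muscle, passed the filter only through NAc arrays and was below it on every VMB and PFC array. It is therefore not read as a difference between regions.

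Other probesets of the same genes allow a check within each gene. For members called in NAc against PFC, 10 genes had 24 further probesets, of which 21 had the same sign and 16 were also called, while 3 had the opposite sign and 1 of these was called. One of the 16, of *Rpl27a*, passed the filter only through NAc arrays. The 1 called with the opposite sign belonged to *Rpl22*. This second probeset of *Rpl22* was lower in NAc than in PFC by 0.60 (limma adjusted p = 7.43e-10). It was also lower in VMB than in PFC by 0.50 (adjusted p = 1.73e-06), so the direction of *Rpl22* is not settled by the array. For NAc against VMB, 22 of 24 further probesets had the same sign and 11 were also called. For VMB against PFC it was 3 of 5, and 1 was called in each direction. A second probeset of *Rps15* differed by 0.48 in NAc against PFC (limma adjusted p = 1.28e-07), where the chosen one differed by -0.02. Further probesets of *Rps10*, *Rpl13a*, *Rps7*, *Rps14*, *Rps20* and *Rps29* were also called higher there, though the chosen ones were not. For *Rps10* the largest difference was 1.08, against 0.09 for the chosen probeset. Those of *Rpl37a*, *Rpl41*, *Rpl7l1* and *Rps27l* were not called. Whether a gene was called could thus depend on the probeset chosen. Of the 97 probesets that passed the filter and list a ribosomal protein with another symbol, 46 were higher and 0 lower in NAc against PFC. Among all probesets 18.2% were higher and 17% lower there. In VMB against PFC 14 were higher and 9 lower (19.6% and 18.6% of all probesets). In NAc against VMB 42 were higher and 0 lower (19.5% and 19.9% of all probesets). These 97 cannot be assigned to 1 gene and were not split by suffix, so they do not check the members.

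Elongation factors carry aminoacyl-tRNA to the ribosome and move it along the message. Of 7 measured, 2 were higher and 1 lower in NAc than in PFC, where 18.2% of all probesets were higher and 17% lower: *Eef1b2* by 0.84 and *Eef1d* by 0.54, both nucleotide exchange subunits, and *Eef1a2*, the form of neurons and muscle, by -0.51. Of 31 initiation factors 3 were higher and 5 lower, among them the cap-binding *Eif4e*, at 9.12 in NAc and 10.18 in PFC, a difference of -1.06. The median difference was 0.14 for the initiation factors and 0.04 for the elongation factors. Other messages known to carry the TOP motif had 4 of 16 higher and none lower, with *Btf3* and *Npm1* beside both elongation factor subunits, and a median of 0.22. Of 42 genes of ribosome assembly 13 were higher and 4 lower, with a median of 0.14. Of 13 genes of the TOR and S6 kinase pathway 2 were higher and 4 lower, with a median of -0.13. *Mtor* itself was higher by 0.38, and its activator *Rheb* was lower by 0.62. Mitochondrial ribosomal proteins, which serve a separate ribosome, had 32 of 74 higher and 1 lower with a median of 0.33, close to the 0.31 of their cytoplasmic counterparts. In VMB against PFC 21 of these 74 were higher and none lower (median 0.19), and in NAc against VMB 14 were higher and 5 lower (median 0.12). Of the other lists, VMB against PFC had 1 elongation factor higher and none lower, 3 initiation factors higher and 3 lower, 3 TOP messages higher and 2 lower, 7 assembly genes higher and 5 lower, and 1 TOR pathway gene higher and 5 lower. The share called higher was below the 19.6% of all probesets in each of these 5 lists, from 7.69% to 18.8%. NAc against VMB had 1 elongation factor higher and 1 lower, 4 initiation factors higher and 5 lower, 4 TOP messages higher and none lower, 7 assembly genes higher and 4 lower, and 3 TOR pathway genes higher and 1 lower. The shares called higher there ran from 12.9% to 25%, on both sides of the 19.5% of all probesets.

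Regions of the brain differ in their mix of cells, and in bulk tissue fewer cells of a type and less RNA per cell cannot be told apart. Markers of oligodendrocytes, the myelin-forming cells, were higher in NAc than in PFC for 8 of 8 measured. Their mean level ranged from 10.00 to 10.32 over NAc arrays, from 10.83 to 11.16 over VMB arrays and from 7.77 to 9.14 over PFC arrays. Markers of striatal neurons ranged from 9.47 to 9.95 in NAc, from 6.71 to 7.06 in VMB and from 6.50 to 6.69 in PFC. Those of cortical excitatory neurons ranged from 6.57 to 7.16 in NAc, from 5.26 to 5.70 in VMB and from 8.42 to 8.68 in PFC. Astrocyte markers had none of 8 higher and 2 lower in NAc than in PFC, microglial markers 1 of 9 higher and 1 lower, and endothelial markers none of 6 called. The part of cell mixture in the differences of the ribosomal protein genes was not tested.

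On the deposited values of each region taken alone, ribosomal protein genes varied little between mice. Their median SD over 19 arrays was 0.078 in NAc, 0.090 in VMB and 0.096 in PFC, against 0.16 in NAc, 0.16 in VMB and 0.13 in PFC over 11342 genes. For 38 of the 47 the SD was below the median of all genes in NAc, and the count was 38 in VMB and 38 in PFC as well. Among genes with a mean RMA of at least 10 the median SD was 0.062 for 34 members and 0.0997 for 635 genes in NAc, and 0.085 for the members and 0.094 for those genes in PFC. The smallest SDs in NAc were those of *Rps24* (0.030), *Rps29* (0.031) and *Rps10* (0.032), all small subunit genes. In VMB they were those of *Rpl13a*, *Rpl19* and *Rpl27* (0.055, 0.055 and 0.056), and in PFC those of *Rps24*, *Rps29* and *Rpl19* (0.050, 0.057 and 0.058). The largest were those of *Rpl27a*, *Rpl3l* and *Rpl14* in NAc (0.87, 0.33 and 0.27) and in VMB (0.79, 0.26 and 0.26), and of *Rps4l*, *Rpl14* and *Rps6* in PFC (0.52, 0.42 and 0.26). PFC replicate 3 gave the extreme value of these 3 genes in PFC, high for *Rpl14* at 5.91 and low for *Rps4l* at 4.95 and *Rps6* at 5.04 on the deposited scale.

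Ribosomal protein genes had higher correlations with each other from mouse to mouse in VMB and PFC than pairs of all genes did. The median Pearson's r over all pairs of the 47 genes was 0.12 in NAc, 0.35 in VMB and 0.35 in PFC, each over 19 arrays. Over pairs of all genes it was 0.01 in NAc, 0.02 in VMB and 0.01 in PFC, and over pairs of genes with a mean RMA of at least 10 it was 0.10 in NAc, 0.10 in VMB and 0.02 in PFC. For the 34 members of that level it was 0.14 in NAc, 0.42 in VMB and 0.47 in PFC. Mitochondrial ribosomal protein genes had 0.43 in NAc, 0.45 in VMB and 0.28 in PFC. These values are descriptions without a test, since genes on 1 array share its RNA, labelling and normalization. In size the shared movement was small. The mean deviation of the 47 genes from their regional means ran from -0.055 (replicate 9) to 0.045 (replicate 1) over NAc arrays, from -0.15 (replicate 4) to 0.074 (replicate 10) over VMB arrays, and from -0.10 (replicate 18) to 0.11 (replicate 9) over PFC arrays.

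**Figure D4:**
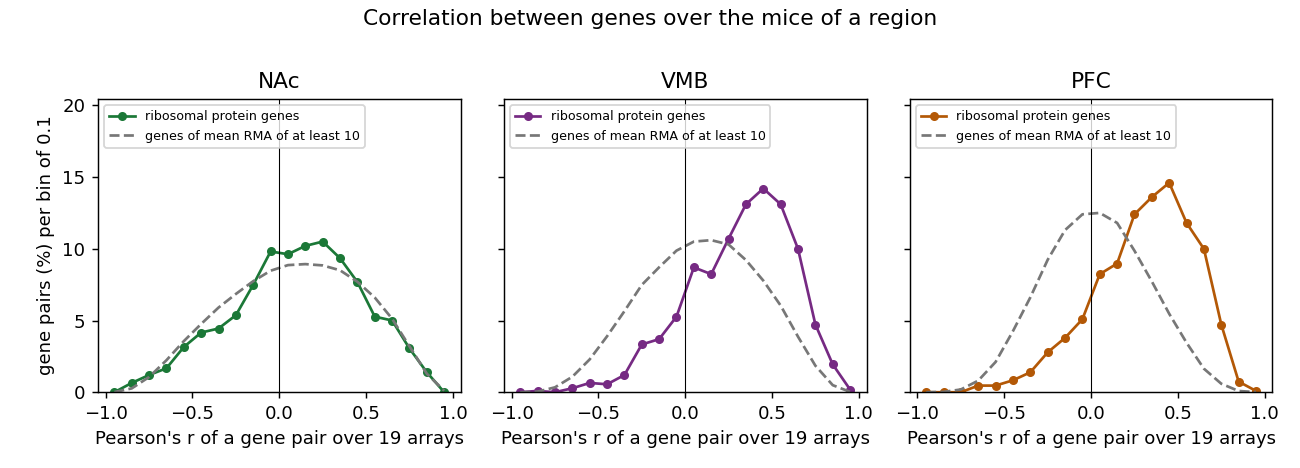
Distribution of Pearson's r between pairs of the 47 ribosomal protein genes (solid lines with points) and between pairs of genes with a mean RMA of at least 10 (dashed) over the 19 arrays of each region (x axis, r; y axis, percent of pairs per bin of 0.1). The solid line lies close to the dashed one in NAc, with medians of 0.12 and 0.10, and right of it in VMB (0.35 and 0.10) and PFC (0.35 and 0.02).

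The first principal component, the single axis that holds most of the variation over all probesets, took 51.2% of the variance among NAc arrays, 32.4% among VMB arrays and 17.2% among PFC arrays. Its sign was set so that *Rpl27a* had a positive relation to it in each region. In NAc the level of *Rpl27a* fell into 2 sets, with 6 arrays (replicates 1, 4, 6, 9, 18 and 19) between 9.50 and 10.02 and 13 arrays between 7.36 and 8.62. These 6 arrays also had the highest scores, 9.40 or more, against 2.04 or less in the other 13. Of the other 19814 probesets, 243 had an r over 0.9 with *Rpl27a* over the NAc arrays and 137 an r under -0.9. In VMB, 4 arrays (replicates 1, 2, 6 and 7) lay at 8.22 to 8.86 and the other 15 at 7.62 or less, and the counts were 15 and 1. In PFC all values lay between 5.97 and 6.97, and both counts were 0. The only other probeset of *Rpl27a* alone was at or above the filter's 4.5 on all 19 NAc arrays and on 0 of the 19 VMB and 0 of the 19 PFC arrays, so it is not read as a difference between regions.

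Members went both ways along that axis in NAc and VMB. In NAc 8 of the 47 had an r over 0.5 with the score and 15 an r under -0.5, against 32.8% and 31.4% of all genes. *Rpl27a*, *Rpl3l* and *Rpl37* were at the positive end, and *Rpl37a*, *Rps9* and *Rplp0* at the negative end. *Rps9* ran from 11.70 to 12.17 over the NAc arrays, with its lowest value in replicate 19, 1 of the 6. In VMB the counts were 5 and 7, against 25.4% and 15.8% of all genes. In PFC they were 14 and 1, against 8.52% and 6.09%, so mostly on the positive side. PFC replicate 3 lay farthest along the PFC axis (score -29.6). The r of *Rpl27a*, which set the sign of that axis, was only 0.13 in PFC. The mean of 4 markers of choroid plexus and ependyma ran from 4.64 to 5.28 over NAc arrays and that of 3 blood markers from 4.58 to 5.52, and both were high where the score was high (r = 0.94 and 0.91 over the 19 arrays, as a description). The mean of the initiation factors, between 9.73 and 9.93, was low there (r = -0.96). The score, these markers and *Rpl27a* share the same RNA of each mouse, and the part of any of them in the others was not tested.

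**Figure D5:**
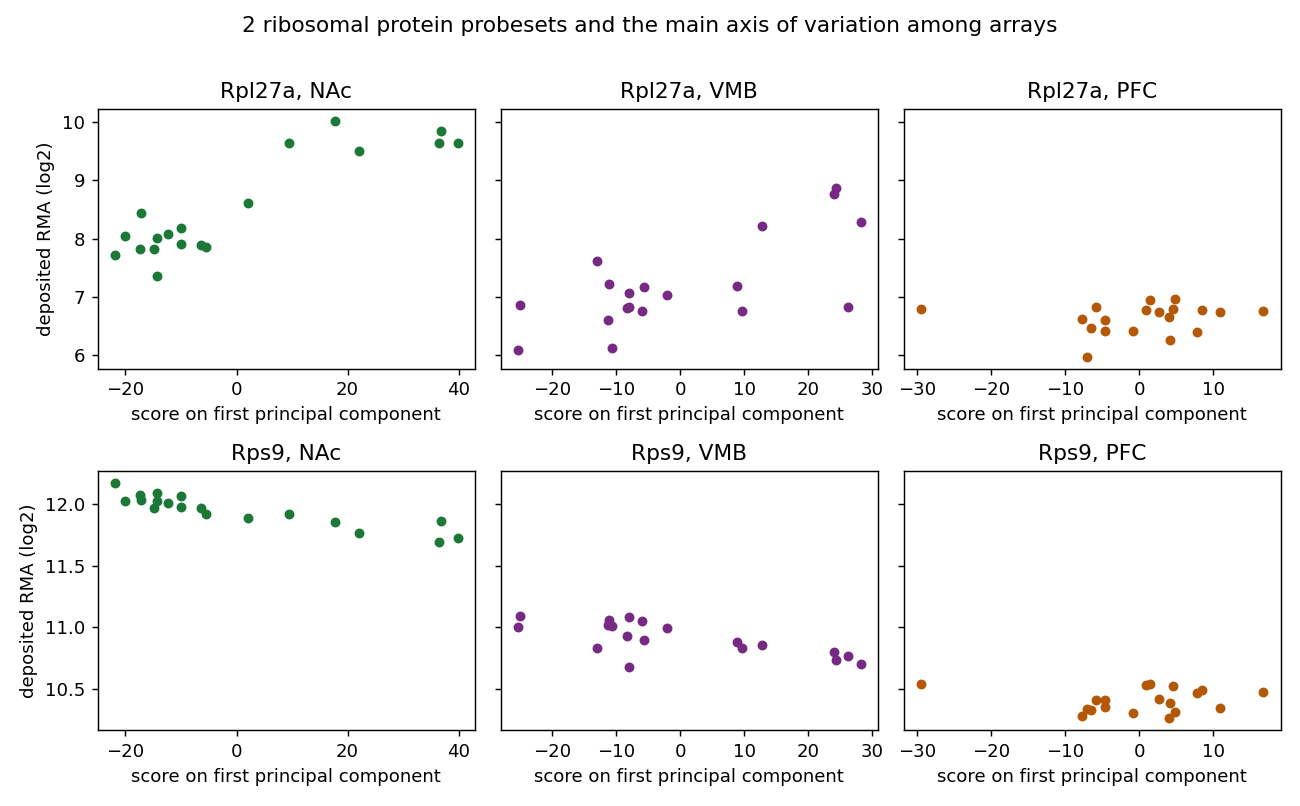
Deposited RMA level (y axis, log2) of *Rpl27a* (top) and *Rps9* (bottom) against the score of each array on the first principal component of its region (x axis, no unit), 19 arrays per region. In NAc 6 arrays with *Rpl27a* between 9.50 and 10.02 have the highest scores, and *Rps9* is lower toward high scores, while PFC shows neither set.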

How the data were processed

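RNA from 1 region of 1 mouse was hybridised to each Affymetrix mouse genome array (57 arrays, 19 per region). Per the labels and the study's methods, the authors scanned with GCOS and deposited RMA log2 values per probeset; a genome build is not given in the sources used here. Values were used as deposited within a region and after quantile normalization of all arrays between regions. Of 22626 probesets, 2811 below 4.5 on all arrays were removed, as in the study. Symbols came from the platform annotation (20380 probesets with 1, 691 with several, 1555 with none). Regions were compared with limma 3.58.1 in R 4.3.3 (treat, minimum difference 0.25, false discovery rate 1%) with all groups in 1 fit. In data simulated for NAc against PFC over 19815 probesets, 65% of changes of 0.5 and 100% of changes of 1 were recovered, with 0 false calls. The simulated noise was independent between probesets, and unchanged probesets differed between regions only by a uniform shift. The real arrays share variation over probesets, so the 0 false calls do not measure the error of the calls given here. The number of arrays, not a count, limits precision.

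Members, gene lists and tests were chosen with earlier results of these data known. Genes named are members called with the largest differences (up to 5 a direction), those of largest and smallest SD, paralogs with their parents, stalk proteins and a few chosen by role; other genes were named after their values were seen. Alternatives covered scale, filter, minimum difference, weights, replicate block, probeset choice and arrays left out.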

Additional observations from a re-analysis of the deposited data

How the results depend on the processing

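Counts of ribosomal protein genes called are given as NAc against PFC, VMB against PFC and NAc against VMB, for which the report has 22, 9 and 14. Deposited values gave 47, 13 and 44, median centring 33, 6 and 33, no minimum difference 41 (40 higher), 35 (26 higher) and 37 (33 higher), and a minimum of 0.5 gave 9, 2 and 3. Without probesets ending in _x_at or _s_at, which leaves 41 genes, the counts were 20, 7 and 8, the last with 7 higher (17.1%, against 19.5% of all probesets). No filter, array weights, the mean over a gene's probesets and leaving out PFC replicate 20 kept each count within 1.5 times. Leaving out 1 array at a time gave 22 in each case, 9 to 10, and 13 to 15. Chosen after seeing the data, leaving out the 3 arrays of each region farthest along the first principal component gave 22, 10 and 14, and leaving out the 6 NAc arrays of highest score 21, 9 and 13. *Rpl27a* in NAc against PFC lost its call without those 6, and so did *Rps2* in NAc against VMB, at 0.34 (adjusted p = 0.0202; 7.16e-33 to 1.0 over 11 alternatives), about as large as the 0.35 with all arrays.

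On deposited values *Rpl19* (0.84) and *Rps2* (0.59) in NAc against PFC, and *Rpl11* (0.71) and *Rpl7l1* (0.38) in NAc against VMB, turned positive, in step with the shift of all probesets. With the mean over its probesets *Rpl22* turned to -0.0218 in NAc against PFC and -0.0215 in VMB against PFC, since they oppose each other. The median r among members was 0.055 in NAc and 0.25 in VMB after quantile normalization of all arrays, and 0.20 in NAc after median centring. Leaving out 1 array at a time it was 0.089 to 0.14 in NAc, 0.30 to 0.38 in VMB and 0.31 to 0.39 in PFC.

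Each mouse gave an array in every region, but the labels do not say that a replicate number marks 1 mouse over regions. Deviations of arrays with the same number correlated on average at 0.056 for NAc with PFC, 0.013 for VMB with PFC and 0.071 for NAc with VMB, over 0.1 in 3, 5 and 10 of 18 pairs, and 2, 1 and 2 arrays correlated best with their own number. With the replicate block the counts were 22, 9 and 15. The planned fit with RNA quality measures could not be run without control probesets, which were not analysed here. With arrays no depth can be given, and genes near background, such as *Rpl3l*, and *Rpl14* in PFC, are poorly resolved.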
